A study of Homo sapiens with 36 samples.

Results

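The genes described here are the 4 MiT-TFE transcription factors MITF, TFEB, TFE3 and TFEC, the glycoprotein gene GPNMB, and the melanosome transport genes RAB27A, RAB27B, MLPH, MYO5A and RAB38. These 10 genes were chosen by name from a table of 45478 genes, and all 10 were in it. The choice was made with earlier results of these libraries known, in which GPNMB and MLPH stood out between resistant and parental cells. Differences of these genes between cell states are therefore given as descriptions with no test. Tests were run only between antibodies and on other genes of the pathway, whose lists were also chosen with earlier results known.

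The study sequenced RNA of A498 and 786-O, a pair of established human cell lines from clear cell kidney cancer, in 36 libraries that form 12 groups of 3. Both lines entered as parental cells and as cells made resistant to sunitinib, a receptor tyrosine kinase inhibitor, by long culture in rising concentrations, which the labels give as ending at 2 µM for A498 and 4 µM for 786-O. The 4 cell states were A498 parental, A498 resistant, 786-O parental and 786-O resistant, and in each of them 3 libraries came from cells under atezolizumab, 3 under avelumab and 3 under durvalumab. These antibodies bind PD-L1 and were given at 10 mg/mL, as the labels write the unit, for 24 h. All 36 libraries thus came from antibody-treated cells, and untreated libraries were not analysed here. Separate cultures are not stated for the 3 libraries of a group, and p-values therefore speak for the spread between these samples only, and that spread may be technical. The labels also do not say whether the resistant cells are a clone or a pool.

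MiT-TFE factors are basic helix-loop-helix leucine zipper proteins that bind DNA as dimers and drive genes of lysosomes, autophagy and, in pigment cells, melanosomes. When nutrients are plentiful the kinase mTORC1, recruited to the lysosome by Rag GTPases, keeps TFEB and TFE3 in the cytoplasm. Their genes are rearranged in a separate class of renal cell carcinoma. In pigment cells, melanosomes are held at the cell edge by a chain of RAB27A, melanophilin (MLPH) and myosin Va (MYO5A), while RAB38 helps deliver enzymes to the forming organelle. GPNMB is a membrane glycoprotein of melanosomes and lysosomes and a known target gene of the family.

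The factors recognise short E-box motifs, so the promoters of the pair of members that held one are shown here. Each runs from 250 bases before to 50 bases after a transcription start, as RefSeq gives it on GRCh38.p14, written 5′ to 3′ on the gene's own strand, with the matches in capitals. The letters searched were CACGTG, which reads the same on both strands, and CATGTG on both strands, where the opposite strand reads CACATG. Neither overlaps the other.

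MLPH chr2:237487001-237487300 (+): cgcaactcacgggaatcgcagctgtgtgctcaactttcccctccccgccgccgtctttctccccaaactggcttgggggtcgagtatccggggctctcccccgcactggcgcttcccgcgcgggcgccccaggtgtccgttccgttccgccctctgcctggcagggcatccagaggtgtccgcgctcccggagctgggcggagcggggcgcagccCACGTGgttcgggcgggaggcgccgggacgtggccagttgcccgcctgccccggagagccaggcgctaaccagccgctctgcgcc

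GPNMB chr7:23246525-23246824 (+): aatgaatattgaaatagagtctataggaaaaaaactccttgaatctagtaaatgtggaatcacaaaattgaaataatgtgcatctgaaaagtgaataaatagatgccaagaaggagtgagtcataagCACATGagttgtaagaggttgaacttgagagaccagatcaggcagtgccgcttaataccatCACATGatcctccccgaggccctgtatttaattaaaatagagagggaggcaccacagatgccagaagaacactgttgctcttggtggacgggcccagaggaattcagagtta

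The MLPH promoter held CACGTG at 35 bases before the start. The GPNMB promoter held CACATG at 123 and at 62 bases before the start. Of 35116 promoters of the same length in the RefSeq table, 7.26% held CACGTG, 11.1% held CATGTG on either strand and 17.6% held at least 1 of them. Counted by gene over all listed starts, 20.9% of 27305 genes did, against 2 of the 9 members with an entry. RAB38 had no entry. A further MLPH start (chr2:237486160-237486459) held neither motif, nor did the listed starts of MITF, TFEB, TFE3, TFEC, RAB27A, RAB27B and MYO5A. A match is a description of letters and no evidence of binding.

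The 4 factors are paralogs, and their reads could be confused only where their transcripts are the same. A stretch of 60 coding bases from the loop and the start of the second helix of the DNA-binding domain shows how close they are. It was read from the GENCODE 29 transcripts, with capitals marking bases that differ from MITF.

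MITF: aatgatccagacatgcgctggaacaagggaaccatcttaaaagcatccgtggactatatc
TFEB: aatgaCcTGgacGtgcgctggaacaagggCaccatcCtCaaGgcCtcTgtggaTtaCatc
TFE3: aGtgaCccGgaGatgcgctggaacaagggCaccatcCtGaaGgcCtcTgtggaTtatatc
TFEC: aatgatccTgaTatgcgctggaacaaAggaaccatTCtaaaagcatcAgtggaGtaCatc

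TFEB differed from MITF at 12 of these 60 bases, TFE3 at 11 and TFEC at 8, so even this conserved stretch told the genes apart. No member shared a window of 50 identical transcript bases with another member. With other genes of the annotation, 5.36% of such windows were shared for RAB27A, 3.23% for RAB27B and 0 to 1.09% for the other members.

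Totals ran from 19994882 to 58122896 counts per library, and levels are given as CPM, a gene's count scaled to the library's total count. Each cell state carries a batch label of its own, so resistance, line and batch cannot be told apart, whereas the antibodies were compared inside 1 batch label. The libraries labelled A498 resistant did not match their line label. HIF1A, which 786-O cells are known to lack as a protein, was at 294 ± 7.37 CPM in A498 parental libraries (SD, n = 9). Its level was 9.36 ± 0.571 CPM in 786-O parental, 8.71 ± 0.424 in 786-O resistant and 8.99 ± 0.493 in the 9 labelled A498 resistant. Over 16968 genes, which are not independent replicates, mean log2 profiles of the libraries labelled A498 resistant gave r = 0.987 with 786-O resistant and r = 0.839 with A498 parental. No library was moved, and each result that rests on these libraries is given as labelled. Values in 786-O are given for all members and for most of the named list genes.

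Marker lists were read for the cell types that make these genes best known. Of 8 melanocyte markers, 2 reached 1 CPM in each state, PMEL and MC1R. MC1R is uncertain because 21.4% of its exonic length is shared with a same-strand neighbour and 16.2% with a gene on the opposite strand. TYR, the enzyme that starts melanin synthesis, had 0 counts in all 36 libraries. A count of 0 allows up to 3 counts, or 0.0516 to 0.15 CPM by library, and this limit covers counting error only. Summed melanocyte markers ran from 18.7 to 22.2 CPM in A498 parental, 12.3 to 13.9 in the 9 labelled A498 resistant, 13.6 to 15.9 in 786-O parental and 13.9 to 15 in 786-O resistant. Summed macrophage markers, read because macrophages make GPNMB, ran from 2.97 to 3.48 CPM in A498 parental, 0.724 to 1.28 in the 9 labelled A498 resistant, 1.67 to 2.55 in 786-O parental and 0.599 to 1.25 in 786-O resistant. The part of these cell types in the levels below was not tested. Of 8 renal epithelial markers, 7 or 8 reached 1 CPM in each state. Their sums were lower in resistant libraries without overlap, at 1372 to 1490 CPM in those labelled A498 resistant against 2497 to 2783 in A498 parental, and at 1299 to 1385 in 786-O resistant against 1845 to 2013 in 786-O parental. Their part in the resistant and parental levels was likewise not tested.

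**Figure D1:**
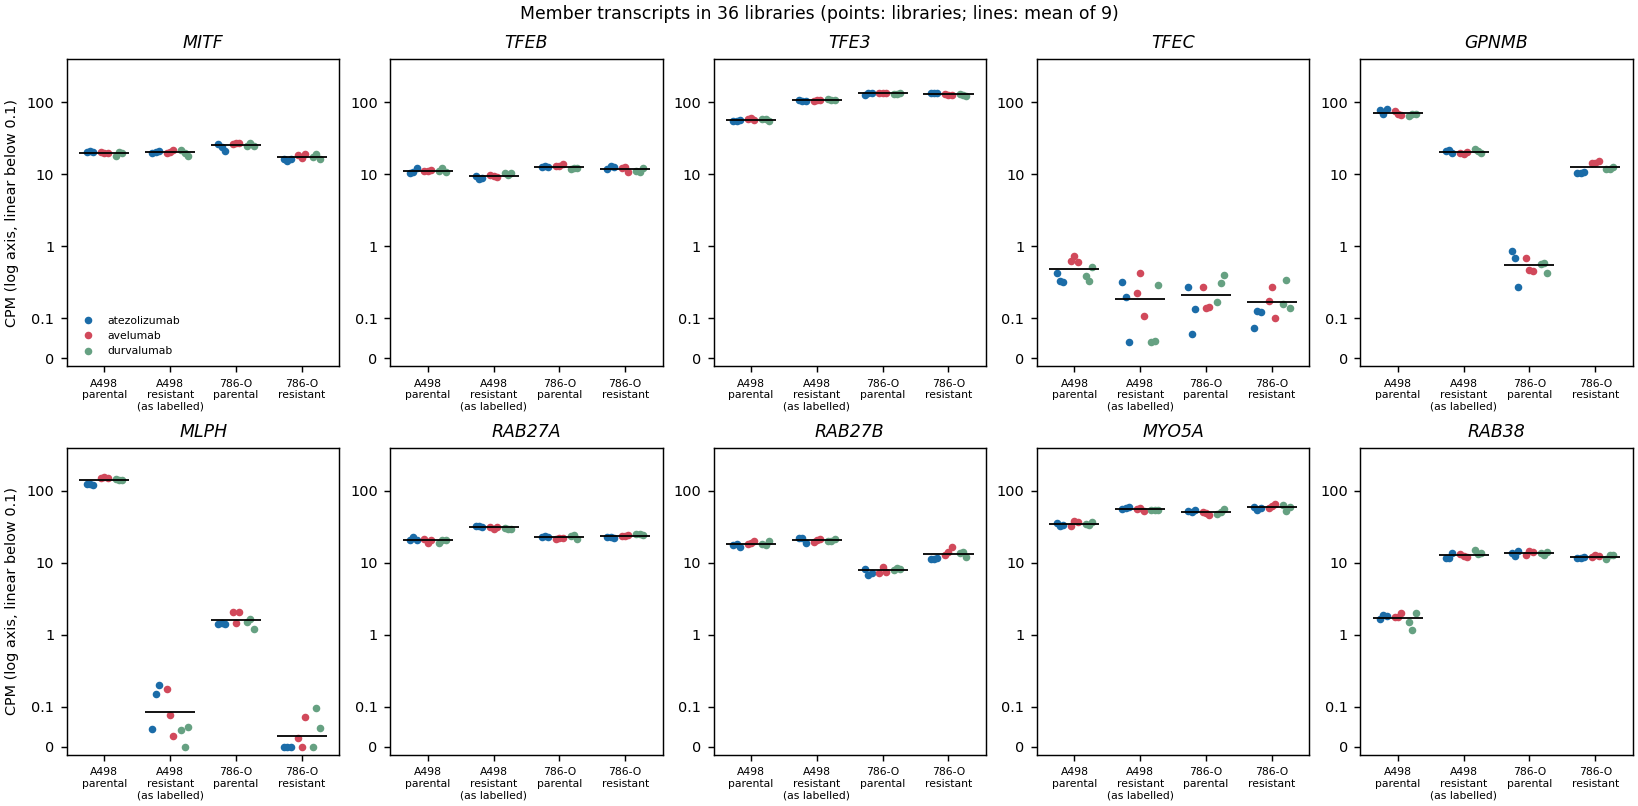
Level of each of the 10 genes in each of the 36 libraries, in CPM on a logarithmic axis that is linear below 0.1. Points are libraries coloured by antibody and lines are the mean of the 9 libraries of a cell state. MLPH and GPNMB span the widest range, while MITF, TFEB and RAB27A stay within a narrow band.

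TFE3 was the most abundant of the 4 factors in every cell state, and TFEC was close to its detection limit. Per kilobase of exonic length, which allows levels of different genes to be set side by side, TFE3 was at 13.4 CPM per kb in A498 parental, 25.0 in the 9 labelled A498 resistant, 31.0 in 786-O parental and 30.5 in 786-O resistant. On the same scale MITF was at 2.78, 2.84, 3.55 and 2.4 CPM per kb in that order of states and TFEB at 1.99, 1.69, 2.26 and 2.1. TFEC did not exceed 0.055 CPM per kb. In bulk samples, fewer cells of a type and less RNA per cell cannot be told apart.

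**Figure D2:**
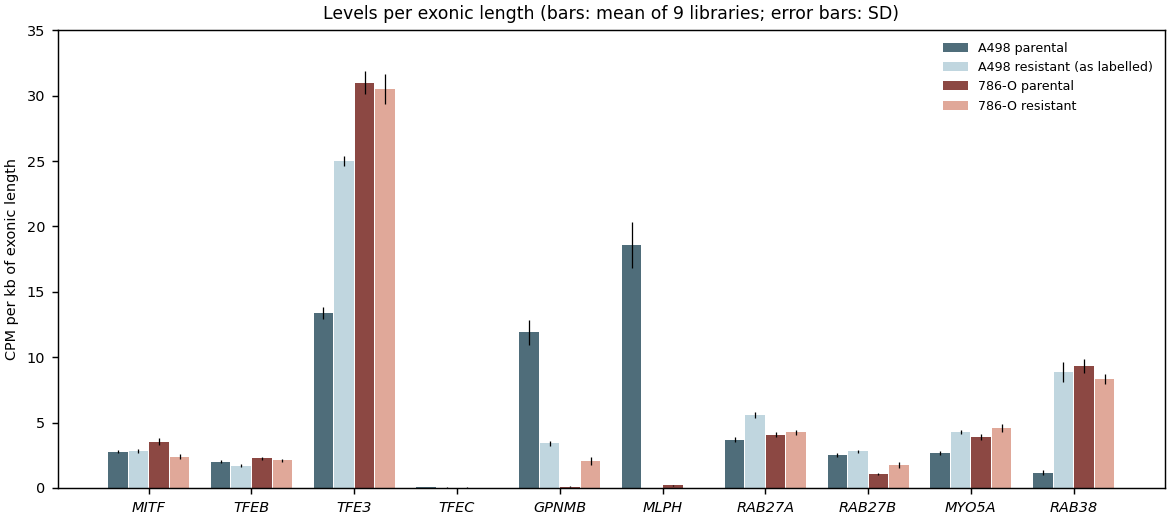
Mean level of each gene per kilobase of exonic length (CPM per kb), with bars for the 4 cell states and error bars for the SD over 9 libraries. TFE3 stands between 13.4 and 31.0 CPM per kb, MLPH reaches 18.6 in A498 parental only, and GPNMB is near 0 in 786-O parental.

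TFE3 (X chromosome, 49028726 to 49043486, minus strand on GRCh38) encodes a factor that, like TFEB, moves to the nucleus when mTORC1 is off. Its lowest, median and highest CPM values were 54.8, 57.2 and 60.5 in the 9 A498 parental libraries and 104, 107 and 110 in the 9 labelled A498 resistant. They were 126, 133 and 137 in 786-O parental and 123, 131 and 137 in 786-O resistant. A498 parental libraries thus lay below all others, the libraries labelled A498 resistant lay between, and the 786-O states overlapped. The ratio of means was 1.87 for A498 as labelled, and the log2 ratio of 786-O resistant over parental was -0.03.

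MITF (chromosome 3, 69739435 to 69968337), the melanocyte master regulator that has several promoters and is made in many tissues, was at 17.9, 20.2 and 20.8 CPM in A498 parental (lowest, median and highest) and 18.1, 20.5 and 21.8 in the 9 labelled A498 resistant. It was at 21.2, 26.2 and 27.4 CPM in 786-O parental and 15.1, 17.0 and 19.3 in 786-O resistant. Each state overlapped its neighbour in the order of levels, but the 786-O states did not overlap each other, and the resistant mean was 1.48-fold lower there. Counts per gene do not separate the isoforms that its promoters give.

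TFEB (chromosome 6, 41683978 to 41736259, minus strand), a regulator of lysosome genes, ran from 8.6 to 10.6 CPM in the 9 libraries labelled A498 resistant, from 10.6 to 12.4 in A498 parental, from 11.8 to 13.8 in 786-O parental and from 10.7 to 13 in 786-O resistant. The log2 ratio of resistant over parental was -0.23 in A498 as labelled and -0.10 in 786-O, and the libraries overlapped in both. TFEC (chromosome 7, 115935148 to 116159896, minus strand), a family member best known from macrophages, held 145 counts over the 9 A498 parental libraries, 40 in those labelled A498 resistant, 72 in 786-O parental and 64 in 786-O resistant. Its CPM values did not exceed 0.74 in any library, and all neighbouring states in its order overlapped.

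GPNMB (chromosome 7, 23235967 to 23275108), the cargo glycoprotein, was the only member whose 4 cell states were all set apart from their neighbours in the order of levels. Its lowest, median and highest values were 65.6, 69.3 and 81.8 CPM in A498 parental and 18.9, 20.7 and 22.2 in the 9 labelled A498 resistant. They were 10.4, 12 and 15.3 CPM in 786-O resistant and 0.272, 0.568 and 0.858 in 786-O parental, where the 9 libraries together held 195 counts. The resistant mean was 22.4-fold that of the parental mean in 786-O (log2 ratio 4.49) and 3.49-fold lower than the parental mean in A498 as labelled (log2 ratio -1.80). Between the parental lines the ratio was 129, and between the libraries labelled A498 resistant and 786-O resistant it was 1.64. The direction in A498 rests on the libraries whose line label was not matched.

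MLPH (chromosome 2, 237485428 to 237555318), the adaptor between RAB27A and myosin Va, was abundant in A498 parental libraries alone. There it was at 120, 142 and 158 CPM (lowest, median and highest), from 42816 counts. In 786-O parental it was at 1.22, 1.48 and 2.11 CPM, from 554 counts. The 9 libraries labelled A498 resistant held 18 counts in all, with a highest value of 0.204 CPM and 1 library at 0. The 9 libraries of 786-O resistant held 10 counts, with a highest value of 0.098 CPM and 5 libraries at 0, where a count of 0 allows 0.0577 to 0.0935 CPM. The A498 parental and 786-O parental libraries were each set apart from all others, and the resistant states overlapped. The resistant mean was 59.5-fold lower than the parental mean in 786-O and 1631-fold lower in A498 as labelled, ratios that rest on these few counts. Between the parental lines the ratio was 88.2. MLPH and GPNMB thus lay in opposite directions between the 786-O states and in the same direction between the A498 states as labelled.

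The partners of MLPH in the transport complex varied far less. RAB27A (chromosome 15, 55202966 to 55319113, minus strand), the GTPase that recruits the complex to the organelle, was at 19.1, 20.7 and 22.6 CPM in A498 parental (lowest, median and highest) and 29.2, 31.5 and 33.1 in the 9 labelled A498 resistant. It was at 21.7, 22.7 and 24.1 CPM in 786-O parental and 22.3, 23.9 and 25.5 in 786-O resistant. The libraries labelled A498 resistant lay above all others, and the other 3 states overlapped in turn. MYO5A (chromosome 15, 52307283 to 52529050, minus strand), the actin motor, was at 32.5, 34.2 and 37.7 CPM in A498 parental, below all other libraries. In the 9 labelled A498 resistant it was at 53.5, 55.6 and 59.1 CPM, with 46.6, 50.5 and 55.9 in 786-O parental and 52.2, 60.1 and 65.8 in 786-O resistant, which overlapped in turn. The ratio of means labelled resistant over parental in A498 was 1.51 for RAB27A and 1.59 for MYO5A, and in 786-O their log2 ratios were 0.06 and 0.23 with overlapping libraries.

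RAB27B (chromosome 18, 54717860 to 54895516), the RAB27A paralog that acts in exosome and granule secretion, did not overlap between the 786-O states. It was at 6.77, 8.09 and 8.89 CPM in 786-O parental and 11.2, 12.9 and 16.5 in 786-O resistant, a ratio of means of 1.67. It was at 16.7, 18.2 and 20.4 CPM in A498 parental and 19, 20.7 and 22.2 in the 9 labelled A498 resistant, which overlapped each other and lay above both 786-O states. Of its exonic length, 4.59% overlaps a gene on the opposite strand, and the strand setting of the counting is not given in the sources used here.

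RAB38 (chromosome 11, 88113242 to 88175467, minus strand), the GTPase of melanosome enzyme delivery, split A498 parental from every other library. It was at 1.17, 1.79 and 2.02 CPM there and at 11.7, 13.3 and 15 in the 9 labelled A498 resistant. It was at 12.5, 13.7 and 14.6 CPM in 786-O parental and 11.5, 12 and 13 in 786-O resistant. The 3 higher states overlapped, and the ratio of means labelled resistant over parental in A498 was 7.48.

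Between 786-O resistant and parental, 4 of the 10 genes had libraries that did not overlap, against 56.8% of the 16968 genes with at least 1 CPM in 3 libraries. GPNMB and RAB27B were higher and MLPH and MITF lower. Between the A498 states as labelled, 6 of 10 did not overlap (TFE3, RAB27A, MYO5A and RAB38 higher, GPNMB and MLPH lower), against 71.1% of genes. Between the libraries labelled A498 resistant and 786-O resistant, 5 of 10 did not overlap, against 36% of genes. GPNMB, RAB27A and RAB27B were higher and TFEB and TFE3 lower in the former. Between the parental lines 7 of 10 did not overlap, against 68.1% of genes, with GPNMB, MLPH and RAB27B higher and TFE3, MITF, MYO5A and RAB38 lower in A498. These comparisons were part of the choice of members, and nothing is read from the counts.

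The question asked of the antibodies was whether the PD-L1 antibodies leave different transcript levels in the same cells. The antibody groups within a state were tested with edgeR's quasi-likelihood test over all genes, with Benjamini-Hochberg adjustment. The earlier results that singled out GPNMB and MLPH were differences between cell states. Levels in all 12 groups, which are also the antibody groups, were however part of the choice of members. The p-values for members are therefore not fully independent of that choice. Of 35 tests of members, 2 passed the threshold of 0.05, MLPH in A498 parental and GPNMB in 786-O resistant. By state, 1 of 10 members passed in A498 parental against 3.83% of all genes, and 0 of 8 in the libraries labelled A498 resistant against 0.0114%. In 786-O parental 0 of 9 passed against 3.52% of all genes, and in 786-O resistant 1 of 8 against 0.741%. Unadjusted p was under 0.05 for 3, 0, 1 and 3 members in that order of states. The members that could not be tested were TFEC in 3 states and MLPH in both resistant states, whose counts were too low. With DESeq2, 5 of 35 tests had an unadjusted p under 0.05.

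MLPH in A498 parental libraries was at 127, 125 and 120 CPM under atezolizumab, 151, 158 and 152 under avelumab, and 145, 141 and 142 under durvalumab. All avelumab libraries lay above all durvalumab libraries, which lay above all atezolizumab libraries. The log2 difference was 0.30 ± 0.0354 (SE) for avelumab minus atezolizumab, 0.19 ± 0.0354 for durvalumab minus atezolizumab and -0.11 ± 0.035 for durvalumab minus avelumab, with an edgeR adjusted p of 5.23e-05 for any difference. The adjusted p was under 0.05 in 15 of 15 alternatives, from 6.98e-11 to 0.00272. Median totals were 29946339, 35111452 and 30666517 counts in the atezolizumab, avelumab and durvalumab groups, and their part in the difference was not tested.

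GPNMB in 786-O resistant libraries was at 10.4, 10.4 and 10.9 CPM under atezolizumab, 14.5, 14.4 and 15.3 under avelumab, and 11.7, 12 and 12.7 under durvalumab. The order of the antibodies was the same as for MLPH, again with no overlap between groups. The log2 difference was 0.45 ± 0.0707 for avelumab minus atezolizumab, 0.17 ± 0.0725 for durvalumab minus atezolizumab and -0.28 ± 0.069 for durvalumab minus avelumab (edgeR adjusted p = 0.0041). The adjusted p was under 0.05 in 15 of 15 alternatives, from 2.97e-05 to 0.0304. Here too the avelumab group had the highest median total, 46878312 counts against 39925264 under atezolizumab and 40834536 under durvalumab, and its part in the difference was not tested.

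**Figure D3:**
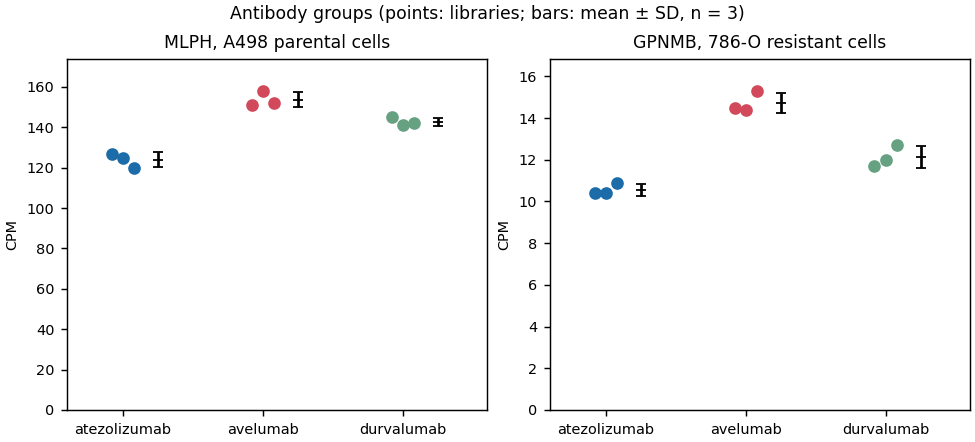
CPM of MLPH in A498 parental libraries (left) and of GPNMB in 786-O resistant libraries (right) under each antibody, on axes that start at 0. Points are the 3 libraries of a group and bars the mean ± SD. In both panels the avelumab libraries are highest and the atezolizumab libraries lowest, with no overlap.

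The other tests of members between antibodies did not pass, in these or in the other states. GPNMB in A498 parental was at 76.7 ± 6.25 CPM (SD, n = 3) under atezolizumab, 70.4 ± 5.5 under avelumab and 67.8 ± 1.97 under durvalumab (edgeR adjusted p = 0.164). The GPNMB antibody difference in A498 parental passed with no filter on low counts (0.00221), without atezolizumab replicate 2 (0.00997) and without avelumab replicate 1 (0.00622), and its alternatives ran from 0.00221 to 0.407. RAB27B in 786-O resistant was at 11.4 ± 0.269 CPM under atezolizumab, 14.5 ± 1.82 under avelumab and 13.4 ± 1.1 under durvalumab (edgeR adjusted p = 0.177). The RAB27B antibody difference in 786-O resistant passed with no filter (0.0239) and in a fit of all 36 libraries (0.0222), with alternatives up to 0.397. MLPH in 786-O parental was at 1.42, 1.44 and 1.41 CPM under atezolizumab, 2.05, 1.48 and 2.11 under avelumab and 1.49, 1.66 and 1.22 under durvalumab, with overlapping groups (edgeR adjusted p = 0.353). TFEC in A498 parental, at 33, 67 and 45 counts under atezolizumab, avelumab and durvalumab, had an edgeR adjusted p of 0.173. In the libraries labelled A498 resistant the largest log2 difference between antibodies among the 8 tested members was 0.19, and the smallest adjusted p was 0.749.

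Whether an antibody difference depended on resistance was tested as an interaction in each line. None of the 10 members passed in A498 as labelled, against 0.889% of all genes, and none of 10 passed in 786-O, against 0.614% (edgeR). Unadjusted p was under 0.05 for 2 members in A498 (RAB38 and MLPH) and 1 in 786-O (TFE3), and DESeq2 gave 3 in both lines together. For GPNMB in 786-O, the avelumab minus atezolizumab difference was larger in resistant than in parental libraries by 0.70 ± 0.283 on the log2 scale (SE, edgeR adjusted p = 0.357). The 3 parental atezolizumab libraries held 35, 23 and 10 counts of GPNMB, which limits this comparison. For MLPH in A498 the term carries no usable value, since the libraries labelled resistant held 9, 7 and 2 counts under atezolizumab, avelumab and durvalumab. In 786-O the resistant libraries held 0, 4 and 6 counts of MLPH, and the same holds there. TFEC, whose counts were too low for the antibody tests in most states, was also among the 10 in each line. Its terms had an SE of 0.738 to 0.78 in 786-O and 0.712 to 0.815 in A498. MLPH and TFEC thus count among the members that did not pass, but with such low counts their not passing says little.

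Other genes of the pathway were read in 5 lists of 101 genes, all of them outside the 10 members, and tested between resistant and parental libraries of each line. In 786-O, 58 of 95 tested genes were higher and 27 lower, with a median log2 change of 0.32 against 0.03 over all genes tested. Of all genes, 43.6% were higher and 40.2% lower. With only genes of at least 10 CPM in 3 libraries the list split was 54 higher and 16 lower. In A498 as labelled, 52 of 97 genes were higher and 39 lower, with a median of 0.16 against 0.01 over all genes, of which 44.2% were higher and 44% lower. The calls come from edgeR with Benjamini-Hochberg adjustment over all genes of the line, and list medians are descriptions. Because the lists were chosen with earlier results of these libraries known, their counts and p-values are not independent of that choice.

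Regulators of the factors come first. In 786-O, 12 of 18 were higher and 4 lower in resistant libraries (median log2 change 0.29). RRAGD, a Rag GTPase and a known MiT-TFE target, was at 28.6 ± 1.42 CPM (SD, n = 9) in resistant and 0.888 ± 0.064 in parental libraries, a log2 change of 4.91 ± 0.0545 (SE, adjusted p = 6.48e-36). TSC1 and TSC2, which together restrain mTORC1, rose by 0.89 and 0.67 on the log2 scale, and RRAGB, another Rag GTPase, by 0.87. In A498 as labelled, 8 of 18 were higher and 9 lower (median -0.05), with RRAGB at 1.53, RRAGD at 1.32, RRAGC at 1.12 and RRAGA at -1.11. RRAGD was at 14.1 ± 0.633 CPM in A498 parental and 37.4 ± 1.98 in the libraries labelled resistant. In 786-O, RRAGC changed by 0.45 and RRAGA by 0.36. RRAGC is uncertain because 22.9% of its exonic length is shared with a same-strand neighbour, as are RRAGA and RRAGB as close paralogs.

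Autophagy and lysosome targets were mostly higher in resistant 786-O. There 30 of 35 were higher and 2 lower, against 43.6% and 40.2% of all genes, with a median of 0.52. NEU1, the lysosomal sialidase, was at 341 ± 9.28 CPM against 86 ± 3.39 in parental libraries (log2 change 1.88). SGSH, a heparan sulfatase, changed by 2.13, and PPARGC1A, the mitochondrial coactivator that TFEB induces, was at 8.17 ± 1.22 against 1.7 ± 0.367 CPM (2.17). The 2 lower genes, CTSF and ATP6V0D2, were at most at 0.501 CPM in either state and were picked out after their values were seen. NEU1 and SGSH belong to a lysosome list already read in these libraries, so this count is not independent of that result. In A498 as labelled, 23 of 35 were higher and 11 lower (median 0.22). ASAH1, the acid ceramidase, was at 225 ± 7.12 against 44.3 ± 1.68 CPM, NEU1 at 297 ± 10.3 against 77.7 ± 0.823 and PPARGC1A at 16.1 ± 1.34 against 0.624 ± 0.117. CTSF, a lysosomal cysteine protease, fell from 17.5 ± 1.39 to 0.0898 ± 0.0355 CPM.

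Most genes of melanosome structure and pigment were low or undetected. PMEL and ATP7A were the highest, with state means of 9.9 to 13.2 CPM for PMEL and 8.81 to 15.9 for ATP7A. Only 7 of 11 could be tested in each line. In 786-O, 3 were higher and 1 lower, of which TPCN2, an ion channel of endolysosomes and melanosomes, rose by 0.66 to 7.54 ± 0.573 CPM. The change of PMEL, the fibril protein of melanosomes, was -0.16 (adjusted p = 0.000365), and under the 10 CPM filter it was -0.07 with an adjusted p of 0.0874. The other 2 higher genes, DCT and GPR143, named after their values were seen, averaged at most 0.377 and 0.239 CPM in a state. In A498 as labelled, 2 were higher (SLC24A5 and DCT) and 3 lower (PMEL, ATP7A and TYRP1), of which DCT and TYRP1 averaged under 1 CPM in both states and were named after their values were seen. SLC24A5, a melanosomal ion exchanger, was at 7.86 ± 0.626 against 0.0242 ± 0.0253 CPM, but 32.9% of its exonic length overlaps MYEF2 on the opposite strand. In 786-O it was at 4.75 ± 0.843 in resistant and 4.27 ± 0.377 CPM in parental libraries (adjusted p = 0.672).

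**Figure D4:**
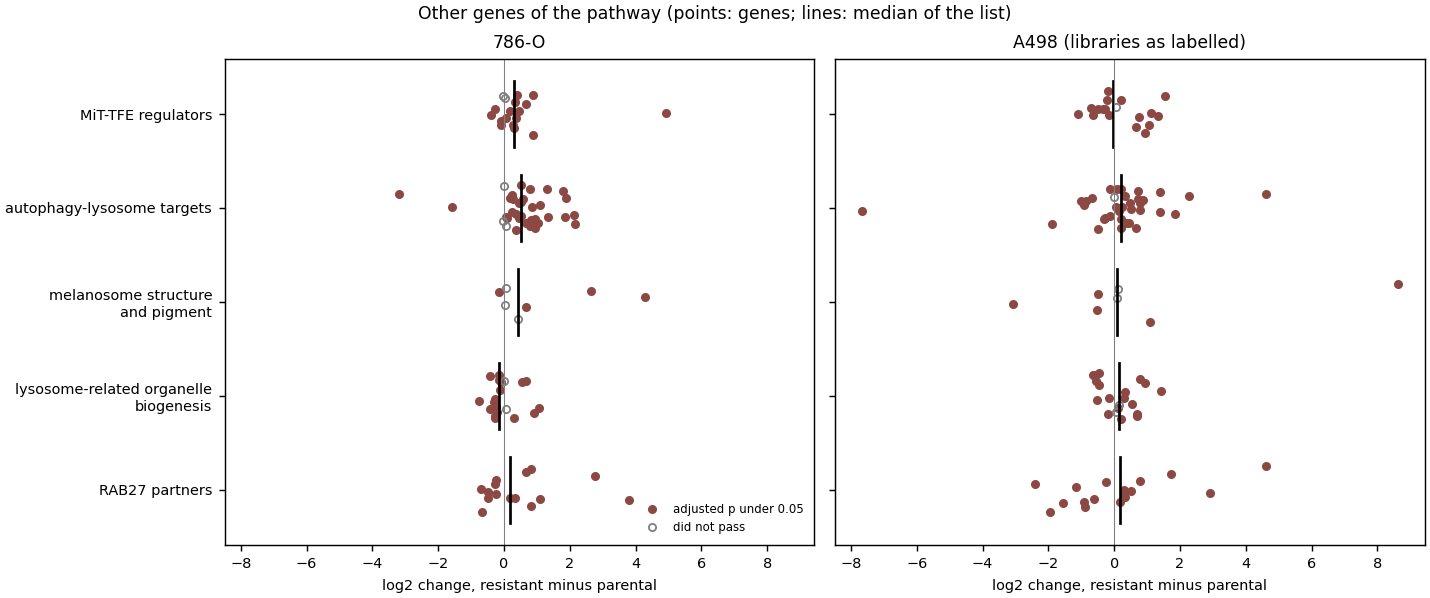
Log2 change of resistant minus parental for each tested gene of the 5 pathway lists, in 786-O (left) and in A498 as labelled (right). Filled points passed an adjusted p of 0.05, open points did not, and vertical lines are list medians. In 786-O the autophagy and lysosome targets lie mostly to the right, with a median of 0.52, and the organelle biogenesis genes to the left, with a median of -0.15.

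Of 20 genes whose products build lysosome-related organelles, 5 were higher and 13 lower in resistant 786-O (median -0.15). Under the 10 CPM filter, 7 were higher and 8 lower of 19, so this split depends on the filter. HPS1, a subunit of the exchange factor for RAB32 and RAB38, rose by 1.07 ± 0.0254 (SE), LYST by 0.90 and RAB32, the closest relative of RAB38, by 0.68. AP3S1, an adaptor subunit, changed by -0.77, with 11.8% of its exonic length shared with ATG12 on the opposite strand. In A498 as labelled 10 of 20 were higher and 8 lower (median 0.14). DTNBP1 changed by 1.43, BLOC1S5 by 0.93, HPS1 by 0.79 and AP3M1 by 0.70 there. In 786-O, DTNBP1 did not pass (18.1 ± 0.96 CPM in resistant and 16.8 ± 0.745 in parental libraries, edgeR adjusted p = 0.967). BLOC1S5 changed by -0.12 and AP3M1 by -0.30 in 786-O. BLOC1S5 shares 11.3% with a read-through gene and AP3M1 18.8% with VCL on the opposite strand, so both are uncertain.

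Among effectors and other partners of RAB27, 8 were higher and 7 lower of 15 tested in 786-O (median 0.19). Under the 10 CPM filter, 2 were higher and 6 lower of 8, so this split also depends on the filter. UNC13D, a priming factor of granule release, was at 7.6 ± 0.848 against 1.04 ± 0.27 CPM (log2 change 2.78 ± 0.0769, SE, n = 9 per state). MYO5B and MYO5C, relatives of MYO5A, rose by 1.08 and 0.82, and SYTL4, a RAB27 effector of which 17.5% overlaps SRPX2 on the opposite strand, by 0.83. In A498 as labelled, 9 of 17 were higher and 8 lower (median 0.19), or 3 higher and 7 lower of 10 under that filter. SYTL2, a RAB27 effector, was at 13.6 ± 1.06 against 68 ± 3.37 CPM, MYO5B changed by -1.95, UNC13D by -1.15 and MYO5C by 4.61.

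At least 1 of the searched E-box motifs stood in the promoter of 8 of 15 regulators with an entry (53.3%), 13 of 18 autophagy and lysosome targets (72.2%), 7 of 9 melanosome genes (77.8%), 7 of 16 organelle biogenesis genes (43.8%) and 5 of 13 RAB27 partners (38.5%). The share over all genes was 20.9%. These lists were drawn up from known biology, the target list among them, and the shares are descriptions.

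The genes with the most similar patterns were found by the root mean square difference of log2(CPM + 0.1) group means, centred over the 12 groups, among 13025 protein-coding genes, for the members whose group means spanned at least 2 on that scale. For GPNMB they were GPRC5C, an orphan receptor (0.26), DSP, desmoplakin of desmosomes (0.37), and GPR37, another orphan-type receptor (0.41). GPRC5C was at 93 CPM in A498 parental, 19.2 in the 9 labelled A498 resistant, 0.715 in 786-O parental and 14.2 in 786-O resistant. For MLPH they were PXDN, a matrix peroxidase (0.51), SLC22A3, an organic cation transporter (0.58), and NR0B1, a nuclear receptor (1.02). PXDN was at 1038, 2.21, 26.6 and 1.98 CPM in the same order of states. For RAB38 they were AK4, a mitochondrial adenylate kinase (0.10), ZNF772, a zinc finger gene (0.11), and TMSB4X, thymosin beta 4 (0.12), of which AK4 was at 14.6, 111, 114 and 101 CPM. TMSB4X is uncertain because it has close copies elsewhere in the genome. With a pseudocount of 1, 2 of these 9 genes remained among the closest 3.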

How the data were processed

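One count table of 36 libraries, deposited by the authors, held whole reads for each gene without normalization. HISAT2 2.1.0 and featureCounts 1.6.3 were used with GRCh38, besides Trimmomatic 0.36.6 and bcl2fastq 2.19.0, per the submitters' processing notes. Per the labels' protocols, a stranded mRNA kit was used. How the counting treated strand, and with which annotation, is not given in the sources used here. Symbols were matched for 45283 of 45478 identifiers, and coordinates came from GENCODE 29. Promoter sequences came from RefSeq on GRCh38.p14. Totals ran from 19994882 to 58122896 counts, without molecular identifiers, so limits cover counting error only.

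CPM was computed over raw totals. Tests used edgeR 4.0.16 (R 4.3.3) with filterByExpr (count minimum 10, total minimum 15), TMM scaling, robust quasi-likelihood and Benjamini-Hochberg adjustment over all tested genes at 0.05. Antibodies were tested in the 9 libraries of a state, and resistance and its interaction in the 18 libraries of a line. Alternatives were DESeq2 1.42.0, its size factors, 2 other filters, a replicate block, all 36 libraries in 1 fit and each library left out. In simulated counts, all 100 genes changed by a log2 of 1 and all 100 changed by 2 were recovered in each line (100%), and 0.0805% of unchanged genes were called in A498 and 0.0483% in 786-O. These values cover resistant minus parental only, among 19458 genes in A498 and 19369 in 786-O. Far fewer genes were changed there than were called in the data. Smaller changes and the antibody tests are not covered.

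The members and the gene lists were chosen with earlier results of these data known. Of each list, up to 4 genes per line were named, the largest changes past the threshold that reached 1 CPM in the higher state, and genes named otherwise are marked. A gene that the rule would name is not reported here. The closest 3 genes were named for members that span at least 2 on the log2 scale.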

Additional observations from a re-analysis of the deposited data

Results flagged for a closer look

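MITF in A498 parental durvalumab replicate 1 was at 17.9 CPM, the lowest of the 9 A498 parental libraries and set apart from the others by Dixon's criterion (critical value 0.493). It was the 1 such library in 40 sets of 9 (10 genes in 4 cell states), and chance sets apart about 1 in 20 sets.

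Among the members and the list genes named by the rule above, several moved one way between resistant and parental 786-O and the opposite way in A498 as labelled. Other list genes were not looked at for this, and these differences between lines were not tested. GPNMB had a log2 ratio of 4.49 in 786-O and -1.80 in A498. AP3M1 changed by -0.30 and 0.70, AP3S1 by -0.77 and 0.29, MYO5B by 1.08 and -1.95, RRAGA by 0.36 and -1.11, and UNC13D by 2.78 and -1.15, in 786-O and A498. The A498 values rest on the libraries whose line label was not matched.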

How the results depend on the processing

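With no filter on low counts, 4 rather than 2 member tests between antibodies passed, with GPNMB in A498 parental and RAB27B in 786-O resistant added, and the median change of all genes between the 786-O states moved from 0.03 to 0.24. With at least 10 CPM in 3 libraries, 16 rather than 27 pathway genes were lower in resistant 786-O. Without the 9 libraries labelled A498 resistant, an alternative chosen after seeing the data, 11 rather than 22 member comparisons had libraries that did not overlap, since 2 of the 4 state pairs remained. Leaving out 1 library at a time gave 2 to 3 member tests between antibodies that passed and 0 interactions each time. It gave 52 to 53 pathway genes higher and 39 lower in A498, 56 to 59 higher and 26 to 27 lower in 786-O, and 22 to 24 comparisons without overlap.

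The replicate block gave 2 member tests that passed, 0 interactions, 52 higher and 39 lower pathway genes in A498 and 58 and 27 in 786-O. Deviations of same-numbered libraries correlated at -0.0792 to 0.0876, with 0 of 9 pairs over 0.1 in each state, so the numbers were taken as names and not as pairing. Depth limits TFEC everywhere and MLPH in both resistant states, where 18 and 10 counts are the basis of the ratios. Counts per gene carry no isoform, and batch labels cannot be told apart from resistance.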
